A study of Mus musculus with 6 samples.

Results

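The 10 transcription factor genes of extraembryonic mesoderm and mesothelium, Hand1, Hand2, Tcf21, Foxf1, Pitx1, Tbx20, Tbx4, Wt1, Gata5 and Osr1, were followed in mouse yolk sacs at embryonic day 9.5. They were chosen by symbol, with earlier results of these data known, and all 10 were found among the 25239 genes of the deposited count table. Of 6 libraries, 3 were labelled Cdx-DKO (written DKO here): a mixed background carrying Cdx1-/- and Cdx2fl/fl alleles with Actin::CreERT, a tamoxifen-inducible Cre driven by an actin promoter and so not limited to 1 cell type, given tamoxifen at embryonic day 5.5. The 3 others were WT, of CD1 strain and untreated. Genotype, strain and tamoxifen therefore differed together and cannot be told apart. Pooling of yolk sacs and the litter of each sample are not given in the labels, and a p-value here therefore covers the spread among libraries alone, which may be technical.

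The yolk sac wall is a layer of visceral endoderm facing a layer of extraembryonic mesoderm, in which blood islands and vessels form. A flat outer sheet of the mesoderm is the mesothelium. Hedgehog and BMP signals pass between the layers, and in the mouse Foxf1 and Hand1 are needed in this mesoderm for normal vessel formation. Hand1, Hand2 and Tcf21 encode basic helix-loop-helix (bHLH) factors, which bind DNA as pairs with E proteins. Foxf1 encodes a forkhead factor and Pitx1 a homeodomain factor. Tbx20 and Tbx4 encode T-box factors, and Wt1 (the Wilms tumour gene), Gata5 and Osr1 encode zinc finger factors.

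Libraries held 20040601 to 56732836 counts, and 3 counts equalled 0.0529 to 0.15 counts per 1000000 (CPM). Cdx2, which the labels give as the gene to be deleted, stood at 23.0, 24.1 and 25.7 CPM in DKO-labelled libraries 1, 2 and 3 and at 16.6, 18.9 and 20.3 CPM in WT libraries 1, 2 and 3. Cdx1, deleted in these animals by the labels, had 10, 14 and 14 counts in DKO-labelled libraries 1, 2 and 3, against 0, 1 and 8 counts in WT libraries 1, 2 and 3. Neither gene was therefore lower in the libraries labelled DKO, and each direction given here depends on those labels. Counts per gene do not show which exons of Cdx1 or Cdx2 were read. Libraries labelled DKO also stood further apart than the WT libraries: the median gene had a coefficient of variation (CV, SD over mean) of 19.2% among the libraries labelled DKO and 8.33% among WT libraries. All libraries held RNA of both layers, with mesenchyme and visceral endoderm markers at high levels. Msln, a marker of mature mesothelium, had 0 counts in each library, while the mesothelial gene Upk3b stood at 11.5 to 37.7 CPM.

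The sequence upstream of Hand2 and of Fendrr is shown because Hand2 and Foxf1 each lie head to head with a long noncoding RNA gene whose counts are compared with theirs below, and that of Tbx20 as a window without a match. The Hand2 start lies 124 bases from the RefSeq start of Hand2os1 on mouse chromosome 8, and the Foxf1 start 1276 bases from that of Fendrr on the same chromosome. Sequences are from RefSeq (GRCm38.p6), read 5′ to 3′ on the gene's own strand and end at the base before its start. They are the 250 bases before Hand2 (chr8:57320733-57320982, plus strand), before Fendrr (chr8:121083111-121083360, minus strand) and before Tbx20 (chr9:24774304-24774553, minus strand). Capitals mark matches, on either strand, to the motifs named below.
Hand2: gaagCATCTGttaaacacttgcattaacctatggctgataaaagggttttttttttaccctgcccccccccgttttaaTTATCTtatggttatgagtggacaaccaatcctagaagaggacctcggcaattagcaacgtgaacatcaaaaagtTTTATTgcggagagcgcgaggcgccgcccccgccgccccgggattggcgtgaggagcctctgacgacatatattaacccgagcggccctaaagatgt
Fendrr: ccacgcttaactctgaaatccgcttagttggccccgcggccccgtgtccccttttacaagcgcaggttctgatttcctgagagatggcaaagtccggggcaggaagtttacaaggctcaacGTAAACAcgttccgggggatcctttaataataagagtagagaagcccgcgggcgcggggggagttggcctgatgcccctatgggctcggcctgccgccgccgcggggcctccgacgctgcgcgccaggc
Tbx20: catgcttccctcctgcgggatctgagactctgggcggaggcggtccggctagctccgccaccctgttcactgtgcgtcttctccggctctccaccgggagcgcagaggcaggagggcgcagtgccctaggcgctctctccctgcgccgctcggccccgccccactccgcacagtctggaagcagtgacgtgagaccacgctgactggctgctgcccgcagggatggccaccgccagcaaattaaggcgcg

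Of the 10 genes, 5 had a promoter in the RefSeq table, namely Hand2, Tbx20, Tbx4, Gata5 and Tcf21. Windows of 250 bases before to 50 after the start were searched on both strands for 5 short motifs. Letters are given in the forward direction. TTTATT and TTTATG stand for caudal-type sites, the class that Cdx proteins bind, CATCTG for a site of Hand factors with E proteins, AGATAA for GATA factors and GTAAACA for forkhead factors. The matches printed in capitals do not overlap each other. The Hand2 window held TTTATT once, as did 20% of 27025 promoters, CATCTG once (17.2% of promoters) and AGATAA once on the opposite strand (11.4%). The Fendrr window held GTAAACA once (3.55% of promoters). Tcf21 held AGATAA, in its first exon, and Tbx4 held CATCTG, and the windows of Tbx20 and Gata5 held no match. TTTATG, found in 12.1% of promoters, was absent from these windows. A match describes the letters of the window only.

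Per kilobase of exon, Hand1 was the highest of the 10 genes in WT yolk sacs. Levels on this scale, CPM divided by the combined exon length in GENCODE M21, averaged 60.7 ± 3.79 for Hand1, 21.5 ± 1.25 for Foxf1, 15.5 ± 4.17 for Pitx1, 8.62 ± 0.157 for Hand2 and 3.85 ± 0.774 for Tbx20 in WT libraries (SD, n = 3). These first 5 did not overlap between neighbours, the closest being Foxf1 at 20.2 or more and Pitx1 at 19.9 or less. Gata5 at 0.931 ± 0.247 and Tcf21 at 0.739 ± 0.0357 overlapped, as did Wt1 at 0.292 ± 0.0868 and Osr1 at 0.249 ± 0.0816 (SD, n = 3 each). The genes thus fell into 5 that were readily counted and 5 at low levels in WT yolk sacs. In the libraries labelled DKO the order at the top depended on the library: in library 3 Pitx1 stood at 31.0 and Hand1 at 29.9, whereas in library 1 Hand1 stood at 119 and Pitx1 at 9.43. The exon set that the authors counted is not given in the sources used here, so the scale is approximate, most of all for Tbx20, whose combined exons span 11997 bases over several isoforms.

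**Figure D1:**
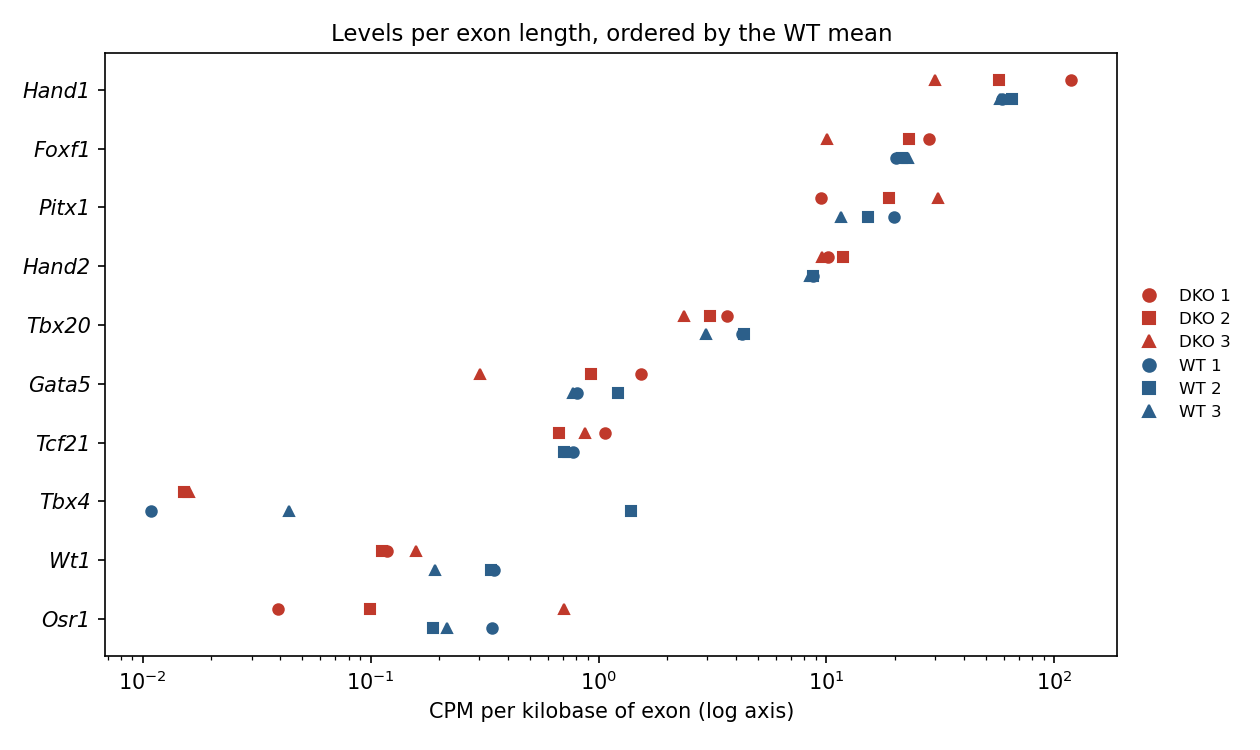
Level of each gene in CPM per kilobase of exon (log axis) in the 3 libraries labelled DKO (red) and 3 WT libraries (blue), with marker shape for the replicate number and genes ordered by the WT mean. Hand1, at 57.9 to 65.0 in WT, leads the WT order, and Tbx4 reaches 1.39 in WT library 2 alone; its value of 0 in library 1 labelled DKO cannot be drawn on a log axis.

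Hand1 (chromosome 11, 57828705 to 57832818, GRCm38), a bHLH gene of extraembryonic mesoderm, trophoblast and heart, had 237, 114 and 59.6 CPM in DKO-labelled libraries 1, 2 and 3, against 118, 130 and 116 CPM in WT libraries 1, 2 and 3. Libraries 1 and 3 labelled DKO lay on opposite sides of a narrow WT range and differed from each other 3.97-fold, while WT libraries differed 1.12-fold. The log2 fold change was 0.17 (SE 0.45). The quasi-likelihood test of edgeR gave it an adjusted p of 0.898, and the difference was smaller than the spread among libraries labelled DKO. The direction turned without library 1 labelled DKO, where the log2 fold change was -0.49.

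Hand2 (chromosome 8, 57320983 to 57324633), a paralog known from heart, limb and branchial arch, showed another pattern. It had 24.0, 27.7 and 22.5 CPM in DKO-labelled libraries 1, 2 and 3, against 20.5, 20.4 and 19.9 CPM in WT libraries 1, 2 and 3. Each library labelled DKO exceeded each WT library, as was the case for 7.93% of all genes tested. The means were 24.7 ± 2.68 and 20.3 ± 0.369 CPM in the libraries labelled DKO and in WT (SD, n = 3 each). Its log2 fold change was 0.29 (SE 0.12). By edgeR the unadjusted p was 0.0487 and the adjusted p 0.545, so Hand2 did not pass the threshold of 0.05. With libraries scaled to a list of 20 mesenchyme genes the log2 fold change was -0.02, where the median of all genes tested moved to -0.288.

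As a share of Hand1 plus Hand2 counts, which no library scaling affects, Hand2 made up 9.19%, 19.5% and 27.4% in DKO-labelled libraries 1, 2 and 3, against 14.8%, 13.6% and 14.7% in WT libraries 1, 2 and 3. The WT shares were close together, and libraries labelled DKO lay below and above them. The groups did not differ by an exact two-sided permutation test (p = 0.5, where 3 against 3 libraries cannot go below 0.1). Without library 3 labelled DKO the difference of mean shares, 4.35 percentage points with all libraries, was 0.0105. Without library 1 labelled DKO it was 9.12.

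Tcf21 (chromosome 10, 22817281 to 22820174), a bHLH gene of mesothelium-derived mesenchyme, had 2.51, 1.57 and 2.04 CPM in DKO-labelled libraries 1, 2 and 3, against 1.82, 1.65 and 1.74 CPM in WT libraries 1, 2 and 3. The groups overlapped, and the log2 fold change of 0.23 (SE 0.27) had an adjusted p of 0.779 from edgeR. Of the E proteins and Id proteins, the partners and inhibitors of bHLH factors, 7 of 7 were tested, 0 passed the threshold and 1 had a positive fold change, with a median of -0.06 against 0.013 over all genes tested. Id2, the Id gene with the highest mean level, stood at 129, 160 and 120 CPM in DKO-labelled libraries 1, 2 and 3 and at 122 to 129 CPM in WT. Id3 was as low as 16.9 CPM in library 3 labelled DKO, against 47.3 to 57.1 CPM in WT, while libraries 1 and 2 labelled DKO had 59.7 and 51.2 CPM.

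**Figure D2:**
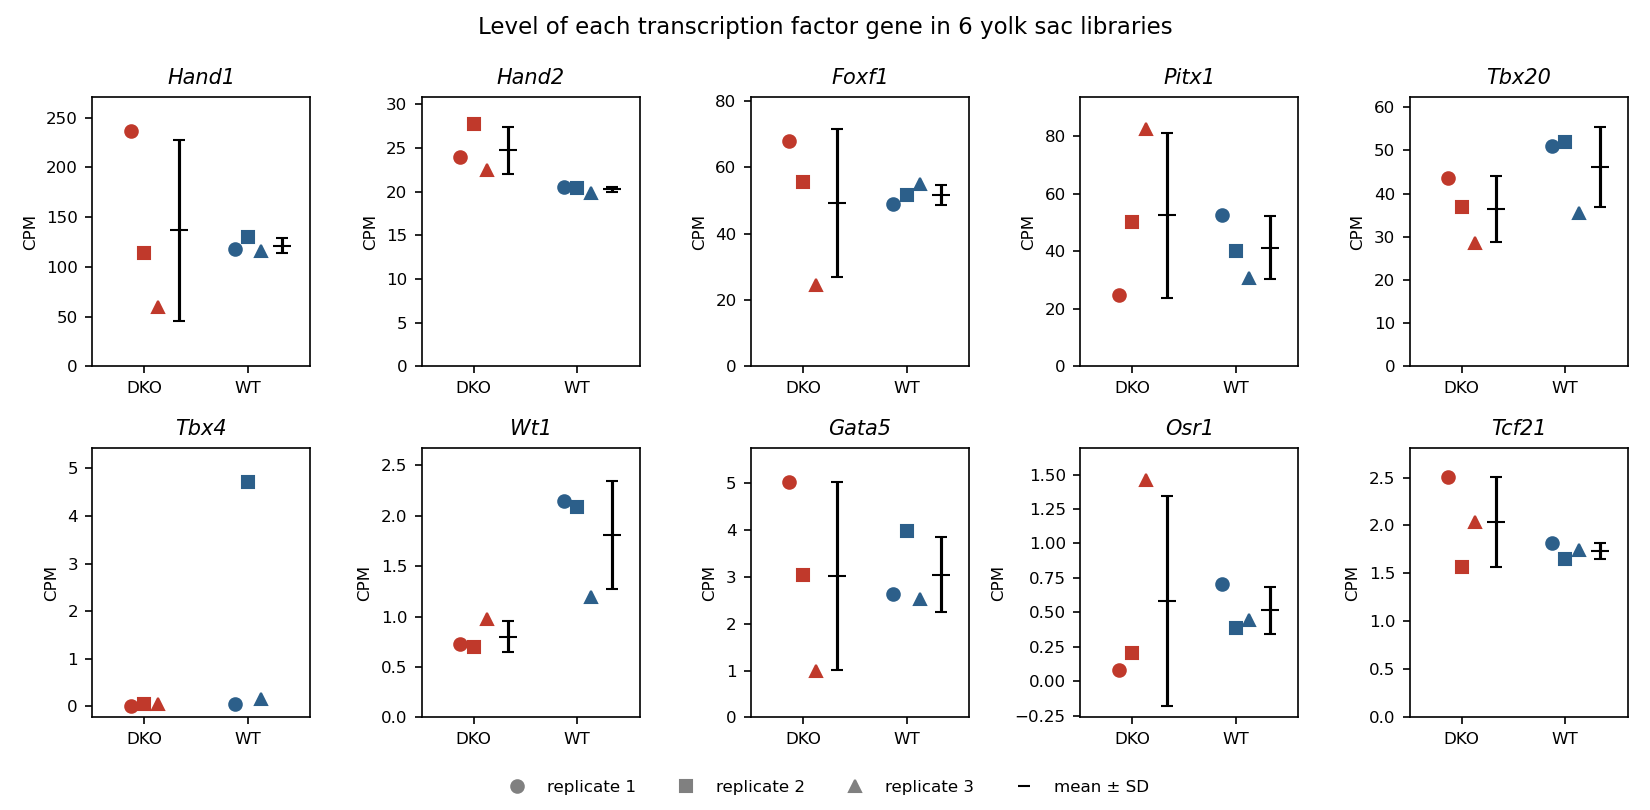
CPM of each of the 10 genes in single libraries, DKO-labelled (red) left of WT (blue), with marker shape for the replicate number and black bars for the mean ± SD of 3 libraries; axes start at or below 0 and differ between genes, and no mean is drawn for Tbx4. Libraries labelled DKO spread widely for Hand1, Pitx1, Gata5 and Osr1, whereas Hand2 lies above and Wt1 below the WT libraries in each library labelled DKO.

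Foxf1 (chromosome 8, 121084386 to 121088144), which answers Hedgehog signals in lateral and extraembryonic mesoderm, had 67.9, 55.5 and 24.5 CPM in DKO-labelled libraries 1, 2 and 3, against 48.9, 51.7 and 54.9 CPM in WT libraries 1, 2 and 3. Library 3 labelled DKO was the lowest of all 6 and libraries 1 and 2 were the highest. The mean log2 fold change was -0.07 (SE 0.35, adjusted p 0.942 from edgeR) and 0.25 without library 3 labelled DKO. The divergent long noncoding RNA Fendrr stood at 4.99, 4.86 and 2.33 CPM in DKO-labelled libraries 1, 2 and 3 and at 4.53, 3.98 and 4.02 CPM in WT libraries 1, 2 and 3. The ratio of Fendrr to Foxf1 counts was 0.0734 to 0.0953 in the libraries labelled DKO and 0.0732 to 0.0926 in WT, so it stayed within about the same range while Foxf1 itself varied 2.77-fold.

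At the Hand2 locus the ratio was less even. Hand2os1 stood at 0.77, 1.34 and 1.86 CPM in DKO-labelled libraries 1, 2 and 3 and at 0.742, 0.826 and 0.496 CPM in WT libraries 1, 2 and 3, from 10 to 103 counts. Its ratio to Hand2 counts was 0.0321, 0.0483 and 0.0827 in DKO-labelled libraries 1, 2 and 3 and 0.0250 to 0.0404 in WT, with overlap and an exact permutation p of 0.3 for the share. Of the Hand2os1 isoforms, some overlap Hand2 on the other strand in GENCODE M21, and the strand setting of the counting is not given in the sources used here, so reads of Hand2 and Hand2os1 may not have been separated. The antisense genes Wt1os and Gata5os had at most 3 counts in every library, so 2 of 4 such neighbours were tested and 0 passed the threshold.

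Of 17 listed Hedgehog and BMP pathway genes, 16 were tested and 0 passed the threshold, with 4 positive and 12 negative fold changes and a median of -0.09. The Hedgehog receptor gene Ptch1, itself a pathway target, stood at 189, 142 and 63.7 CPM in DKO-labelled libraries 1, 2 and 3, against 129, 151 and 136 CPM in WT libraries 1, 2 and 3. Like Foxf1, it was highest in library 1 and lowest in library 3 labelled DKO, an order found in 32.4% of all genes tested. The signal transducer gene Smo stood at 93.7, 73.3 and 65.7 CPM in DKO-labelled libraries 1, 2 and 3, against 89.8 to 106 CPM in WT. Bmp7, which encodes a BMP ligand, lay below WT in each library labelled DKO, as for 7.61% of all genes tested. It stood at 43.1 to 54.4 CPM against 57 to 62.8 CPM in WT (log2 fold change -0.36, SE 0.12, adjusted p 0.482 from edgeR).

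The 12 listed genes that act downstream of Foxf1 or Hand1 or mark smooth muscle had 0 members past the threshold, with a median log2 fold change of 0.01. Among them the adhesion gene Vcam1 stood at 1.3, 1.39 and 0.56 CPM in DKO-labelled libraries 1, 2 and 3, against 1.41, 3.74 and 1.19 CPM in WT libraries 1, 2 and 3. Hgf, a growth factor gene, stood at 0.334 to 0.868 CPM in the libraries labelled DKO, below 0.893 to 1.04 CPM in WT (adjusted p 0.627 from edgeR). The integrin gene Itgb1 stood at 384 to 405 CPM in the libraries labelled DKO and 368 to 442 CPM in WT. Vcam1 and Itgb1 therefore overlapped between the groups. Hgf, at 13 to 48 counts per library, did not, as for 7.61% of all genes tested with each library labelled DKO below WT.

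Pitx1 (chromosome 13, 55825051 to 55836192), a homeodomain gene known from hindlimb and pituitary, was ordered opposite to Hand1 among the libraries labelled DKO. It had 25.0, 50.2 and 82.4 CPM in DKO-labelled libraries 1, 2 and 3, against 52.8, 40.3 and 30.8 CPM in WT libraries 1, 2 and 3. Library 1 labelled DKO lay below and library 3 above all WT libraries, and WT libraries also varied 1.72-fold. The log2 fold change was 0.35 (SE 0.43, adjusted p 0.791 from edgeR) and -0.14 without library 3 labelled DKO. The ratio of Pitx1 to Hand1 counts was 0.106, 0.44 and 1.38 in DKO-labelled libraries 1, 2 and 3, against 0.266 to 0.447 in WT.

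Tbx20 (chromosome 9, 24718138 to 24774303), a T-box gene known from the heart, had 43.7, 37.0 and 28.6 CPM in DKO-labelled libraries 1, 2 and 3, against 51.0, 52.0 and 35.4 CPM in WT libraries 1, 2 and 3. The groups overlapped through WT library 3, and the log2 fold change was -0.34 (SE 0.21, adjusted p 0.648 from edgeR). Its sign was negative under each alternative tried, from -0.53 to -0.20. Its CV was 20.8% in the libraries labelled DKO and 20.1% in WT.

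Tbx4 (chromosome 11, 85886422 to 85916097), a T-box gene of the allantois and hindlimb, was counted almost only in 1 library. It had 0, 2 and 3 counts in DKO-labelled libraries 1, 2 and 3, against 1, 97 and 3 counts in WT libraries 1, 2 and 3. WT library 2 thus reached 4.71 CPM (exact Poisson interval at 95%, 3.82 to 5.75, covering counting error only), and each other library was at or under 0.149 CPM. By the same interval the 0 counts in library 1 labelled DKO allow up to 0.152 CPM. Tbx4 was removed by the filter on low counts, and the labels give no reason for the difference between WT libraries. Other allantois and amnion genes were mixed. Tbx2 stood at 25.8, 25.8 and 20 CPM and Postn at 367, 294 and 208 CPM in WT libraries 1, 2 and 3, neither set apart in WT library 2. Vcam1, needed for the allantois to join the chorion in the mouse, was highest of all libraries in WT library 2, at 3.74 CPM, against 0.56 to 1.41 CPM in the others. Hoxa10, Hoxa11, Hoxa13 and Nkx1-2, all at low counts in WT, also peaked there among WT libraries. Hoxd13 and Dlx5, likewise low, were highest among WT libraries in library 3, at 0.447 and 0.397 CPM. Hoxa10 had 0, 4 and 71 counts in DKO-labelled libraries 1, 2 and 3, against 2, 7 and 4 in WT libraries 1, 2 and 3. Hoxa11 had 1, 1 and 46 counts in DKO-labelled libraries 1, 2 and 3, against 0, 9 and 1 in WT libraries 1, 2 and 3. Hoxa13 had 1 to 2 counts in each library labelled DKO, against 1, 4 and 0 in WT libraries 1, 2 and 3, and Nkx1-2 had 0 to 1 counts in each library labelled DKO, against 0, 7 and 4 in those WT libraries. The part of allantois tissue in the Tbx4 counts was not tested. That list summed to 283, 515 and 501 CPM in DKO-labelled libraries 1, 2 and 3, against 449, 390 and 285 CPM in WT libraries 1, 2 and 3, and 0 of its 5 tested genes passed the threshold.

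Paralogs of the 10 genes were counted likewise. Of 17 listed, 10 were tested, 0 passed the threshold of edgeR and the median log2 fold change was 0.02. Tbx2 stood at 14.3, 39.3 and 71.1 CPM in DKO-labelled libraries 1, 2 and 3, ordered as Pitx1 was, against 20 to 25.8 CPM in WT. Gata4, a GATA gene of endoderm and mesoderm, stood at 85.1 to 105 CPM in the libraries labelled DKO and 95.8 to 98.4 CPM in WT. Twist1, a mesenchymal bHLH gene, stood at 8.35, 7.07 and 10.1 CPM in DKO-labelled libraries 1, 2 and 3, against 16.6, 12.0 and 17.9 CPM in WT libraries 1, 2 and 3. Each library labelled DKO thus lay below each WT library, as for 7.61% of all genes tested. Its log2 fold change of -0.87 (SE 0.21) had an adjusted p of 0.337 from edgeR and of 0.0219 from DESeq2, which called 1.92% of the genes it tested.

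Wt1 (chromosome 2, 105126529 to 105173616), a zinc finger gene of mesothelium, kidney and gonad, had 18, 27 and 54 counts in DKO-labelled libraries 1, 2 and 3, against 58, 43 and 24 counts in WT libraries 1, 2 and 3. Scaled to depth this was 0.73, 0.694 and 0.976 CPM in DKO-labelled libraries 1, 2 and 3, against 2.15, 2.09 and 1.19 CPM in WT libraries 1, 2 and 3. Every library labelled DKO lay below every WT library, as for 7.61% of all genes tested. The log2 fold change of -1.17 (SE 0.34) had an unadjusted p of 0.0117 and an adjusted p of 0.403 from edgeR (0.154 from DESeq2). It ran from -1.50 to -1.03 over all alternatives, and none brought it past the threshold.

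Gata5 (chromosome 2, 180325133 to 180334699), a zinc finger gene of heart and endoderm, had 5.03, 3.04 and 0.994 CPM in DKO-labelled libraries 1, 2 and 3, against 2.64, 3.98 and 2.53 CPM in WT libraries 1, 2 and 3. The 5.05-fold range among libraries labelled DKO enclosed the WT range, and the log2 fold change was -0.03 (SE 0.57, adjusted p 0.988 from edgeR). Osr1 (chromosome 12, 9570116 to 9581500), a zinc finger gene of intermediate mesoderm, had 2, 8 and 81 counts in DKO-labelled libraries 1, 2 and 3, against 19, 8 and 9 counts in WT libraries 1, 2 and 3. This was 0.0811, 0.206 and 1.46 CPM in the libraries labelled DKO, on either side of 0.389 to 0.705 CPM in WT. Library 3 labelled DKO alone gave Osr1 its positive log2 fold change of 0.25 (SE 0.95, adjusted p 0.931 from edgeR), which was -1.75 without that library.

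Structural genes of mesothelium were mixed in direction. Of 18 listed, 17 were in the table and 13 were tested, 10 with a positive fold change, 0 past the threshold of edgeR, and a median of 0.24 against 0.013 over all genes tested. Aldh1a2, Gpm6a and Lrrn4 had negative log2 fold changes (-0.82, -0.58 and -0.43), and Bnc1 and Bnc2 had 0.04 and 0.02. The uroplakin gene Upk1b stood at 5.23, 11 and 9.09 CPM in DKO-labelled libraries 1, 2 and 3, above 3.12, 3.64 and 1.39 CPM in WT libraries 1, 2 and 3 (log2 fold change 1.63, SE 0.43, adjusted p 0.365 from edgeR and 0.0177 from DESeq2). Such a position above every WT library was found for 7.93% of all genes tested. The keratin gene Krt18 stood at 500, 619 and 891 CPM in DKO-labelled libraries 1, 2 and 3 and 461 to 475 CPM in WT, and Krt8 at 712 to 1100 CPM in the libraries labelled DKO and 705 to 757 CPM in WT. Visceral endoderm also expresses these keratins. The summed visceral endoderm list was highest in the same library 3 labelled DKO, with Afp at 31200 of its 62900 CPM. The part of endoderm in the keratin levels was not tested. Fewer cells of a type and less RNA per cell cannot be told apart in these whole-tissue libraries.

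Across the 10 genes, 9 were tested and 0 passed the adjusted threshold of 0.05 in edgeR, DESeq2 or limma-voom. The test in edgeR called 5 of 14002 genes, or 0.0357%. At an unadjusted p under 0.05 there were 2 of the 9, Hand2 higher and Wt1 lower, where 9.09% of all genes tested were under it, 5.55% higher and 3.54% lower. The same 2 genes were the only ones of the 9 whose groups did not overlap, against 15.5% of all genes tested. The median log2 fold change was 0.17 for the 9 genes and 0.013 for all genes, with 5 positive and 4 negative. With libraries scaled to the mesenchyme list edgeR called 91 genes and without library 1 labelled DKO it called 634, and 0 of the 9 were among them in either case.

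**Figure D3:**
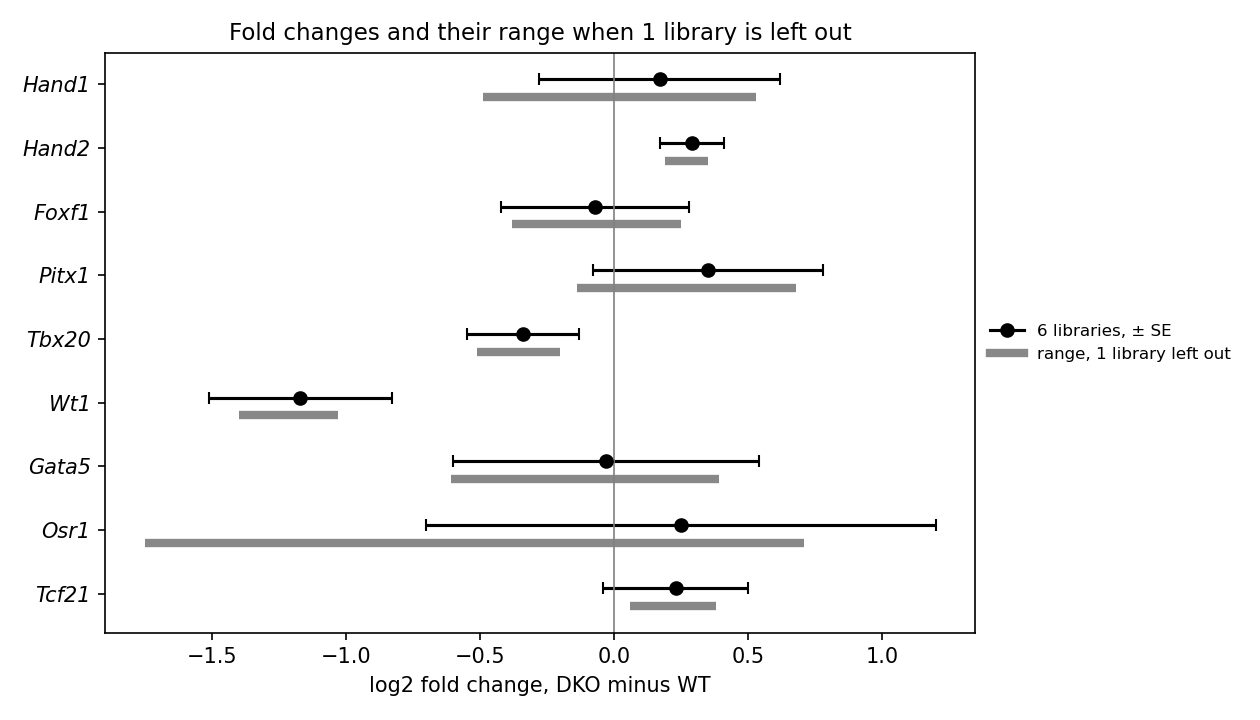
Log2 fold change of the libraries labelled DKO minus WT for the 9 tested genes, as black points with ± SE bars from edgeR on 6 libraries, above grey bars for the range of fits that leave out 1 library each. The grey bars of Hand1, Foxf1, Pitx1, Gata5 and Osr1 cross 0, whereas Wt1 keeps between -1.40 and -1.03 and Hand2 between 0.19 and 0.35.

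The CV was larger among the libraries labelled DKO than among WT libraries for 8 of the 9 tested genes, as for 80.1% of all genes tested, so this share is close to the background. A range of at least 3-fold among the libraries labelled DKO was seen for 4 of the 9, Hand1, Pitx1, Gata5 and Osr1, against 11.7% of all genes tested. Among WT libraries such a range was seen for 0 of the 9 and for 2.13% of all genes. The Osr1 range among the libraries labelled DKO rests on 2, 8 and 81 counts. These background shares are over tested genes of all levels and were not matched to the levels of the 9. Library 3 labelled DKO lay outside the WT range for 9 of the 9 (82.0% of all genes), library 1 for 8 (67.7%) and library 2 for 6 (68.7%).

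These deviations did not run one way. Hand1, Foxf1, Tbx20 and Gata5 were each highest in library 1 and lowest in library 3 labelled DKO, an order found in 32.4% of all genes tested. Pitx1 and Osr1 had the opposite order, found in 33.9% of all genes. Relative to the WT mean on the log2 scale, library 3 labelled DKO stood at -1.02 for Hand1, -1.08 for Foxf1 and -1.53 for Gata5 but at 1.03 for Pitx1 and 1.44 for Osr1. Library 1 labelled DKO stood at 0.97 for Hand1, 0.39 for Foxf1 and 0.74 for Gata5 but at -0.68 for Pitx1 and -1.95 for Osr1. Hand2, Tcf21 and Wt1 followed neither order.

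**Figure D4:**
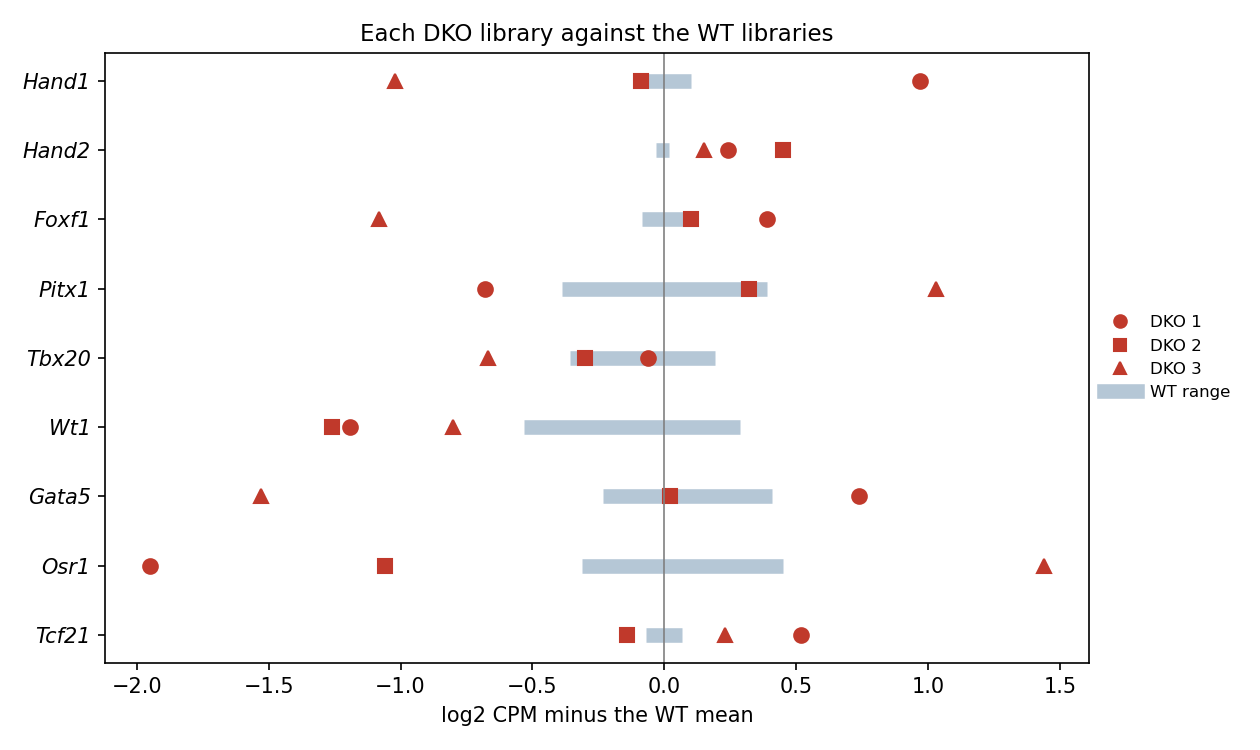
Log2 CPM of each library labelled DKO (red shapes by replicate number) minus the WT mean, for the 9 tested genes, over a blue bar for the range of the 3 WT libraries. Library 1 and library 3 labelled DKO fall on opposite sides for Hand1, Foxf1, Gata5, Pitx1 and Osr1, with Pitx1 and Osr1 turned against the others.

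Several measures of the libraries moved with these deviations. Among embryonic globins, Hbb-bh1 falls and Hbb-y rises as primitive red cells mature, and the Hbb-bh1 to Hbb-y count ratio was 5.4, 1.1 and 0.521 in DKO-labelled libraries 1, 2 and 3 and 1.34 to 1.97 in WT. The summed mesenchyme list of 20 genes stood at 5870, 11900 and 13000 CPM in DKO-labelled libraries 1, 2 and 3, against 9420, 7360 and 6030 CPM in WT libraries 1, 2 and 3. Pitx1 had the same order over these libraries within each group as that sum, and Hand1 the opposite order among the libraries labelled DKO. In the mesenchyme list 19 of 20 genes had a positive fold change, with a median of 0.42, and 0 passed the threshold. Fn1, the list's gene with the highest mean level, stood at 2330 to 2590 CPM in the libraries labelled DKO and 1830 to 2600 CPM in WT. Mfap2, a microfibril gene, stood at 8.39 to 19.3 CPM in the libraries labelled DKO and 6.40 to 7.76 CPM in WT (adjusted p 0.432 from edgeR). The calcium-binding protein gene S100a6 stood at 6.04, 1.90 and 6.91 CPM in DKO-labelled libraries 1, 2 and 3 and 1.19 to 2.43 CPM in WT. Depth was also ordered this way, library 3 labelled DKO being the deepest, and the part of depth, globin ratio and mesenchyme level in the results was not tested.

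Markers of other cell types in which these genes are also known were measured beside them. The trophoblast list, led by Prl2c2 and Rhox6 and relevant because trophoblast giant cells express Hand1, summed to 183, 66.0 and 413 CPM in DKO-labelled libraries 1, 2 and 3, against 39.0, 82.0 and 35.1 CPM in WT libraries 1, 2 and 3. Library 3 labelled DKO thus had the highest trophoblast sum and the lowest Hand1 level. Among 17 trophoblast genes, 10 were tested and all of these had a positive fold change. None passed the threshold of edgeR (3 had an unadjusted p under 0.05), and 3 passed that of DESeq2, which called 1.92% of the genes it tested. Tpbpa, Psg18 and Ctsq had at most 3 counts in every library. The cardiac list, led by Tnni1 and Tnnc1, which bears on Hand1, Hand2, Tbx20 and Gata5, summed to 46.8, 26.6 and 32.7 CPM in DKO-labelled libraries 1, 2 and 3, against 33.3, 52.4 and 58.3 CPM in WT libraries 1, 2 and 3. The lower sum in the libraries labelled DKO rests on 1 gene, Mybpc3. Without it the list summed to 45.7, 26.2 and 31.6 CPM in DKO-labelled libraries 1, 2 and 3, against 25.3, 38.7 and 37.4 CPM in WT libraries 1, 2 and 3, a choice made after seeing the data. In 14 cardiac genes 4 of 12 tested were positive, Nppa had at most 3 counts in every library, and Myh6 had 93 counts in library 1 labelled DKO and 3 to 30 counts in the others. Somite and limb genes, led by Fgf10 and Lhx2, summed to 2.48 to 5.35 CPM in the libraries labelled DKO and 4.86 to 9.88 CPM in WT, and Myf5 and Fgf8 had at most 3 counts in every library.

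The remaining lists describe the other layers of the wall. Visceral endoderm genes summed to 23200, 41500 and 62900 CPM in DKO-labelled libraries 1, 2 and 3, against 34100 to 40000 CPM in WT, led by Afp and Apob, and 14 of 20 tested were positive. Afp alone stood at 2220, 11500 and 31200 CPM in DKO-labelled libraries 1, 2 and 3 and at 6780 to 9860 CPM in WT. As mean log2 CPM of this list the groups differed by 0.02. Endothelial genes, led by Cdh5 and Kdr, summed to 589 to 941 CPM in the libraries labelled DKO and 723 to 836 CPM in WT, with 10 of 16 positive. Erythroid genes, led by Hbb-bh1 and Hba-x, summed to 8520, 10700 and 2850 CPM in DKO-labelled libraries 1, 2 and 3, against 9150 to 14200 CPM in WT, with all 15 tested negative. Neural genes, led by Nes and Ncam1, summed to 57.2 to 75.4 CPM in the libraries labelled DKO and 42.7 to 50.3 CPM in WT. Decidual genes, led by Cryab and Bmp2 in mean level, summed to 43.0, 33.5 and 102 CPM in DKO-labelled libraries 1, 2 and 3. In WT they summed to 35.7 to 40.5 CPM. In library 3 labelled DKO, Cryab and Bmp2 stood at 12.5 and 3.81 CPM. The highest decidual genes there were Prl8a2 at 33.7 CPM (0.397 to 0.923 CPM in WT) and Htra1 at 28.4 CPM (1.15 to 1.46 CPM in WT). By exact permutation of 3 against 3 libraries the smallest p of any list was 0.1, the lowest possible, for the summed CPM of mesothelial and neural genes, unadjusted. As mean log2 CPM, in which each gene weighs the same, the exact permutation p was 0.5 for mesothelial genes (difference 0.11), 0.8 for neural genes with the sign turned (-0.20) and 0.1 for somite and limb genes (-0.73). The part of these cell types in the levels of the 10 genes was not tested.

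**Figure D5:**
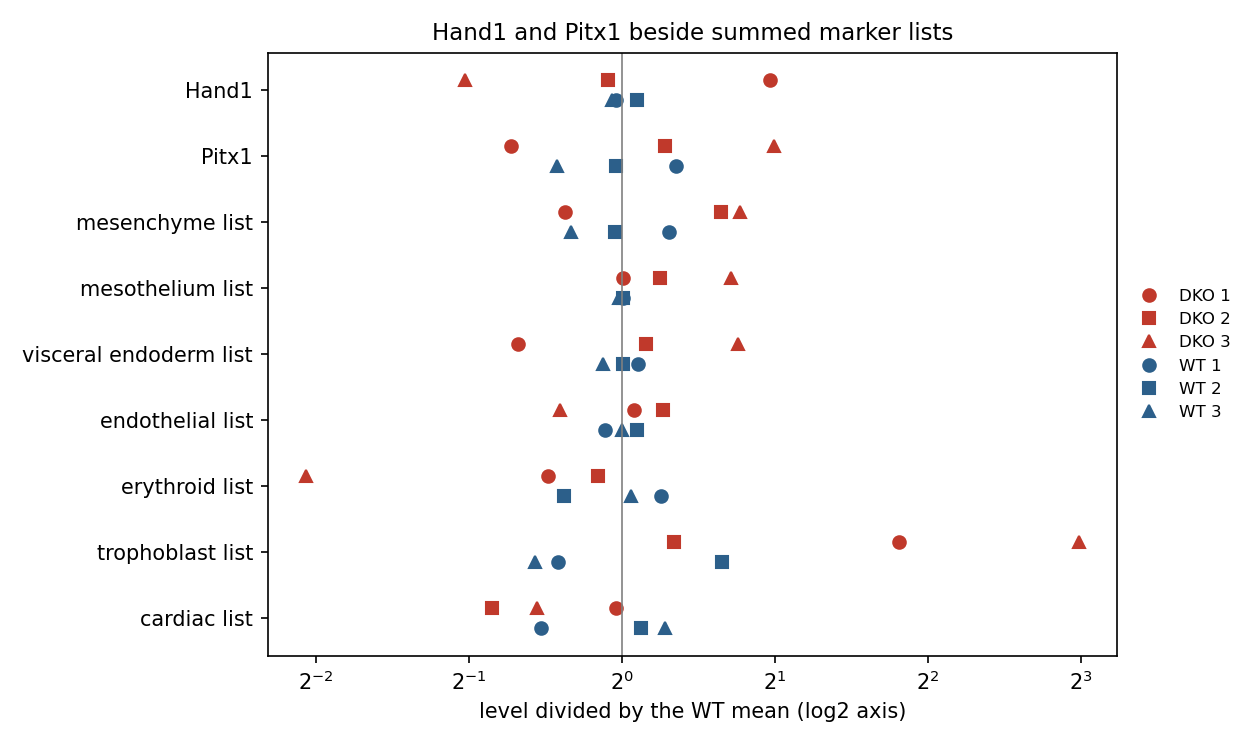
Level of Hand1 and Pitx1 and summed level of 7 marker lists, each divided by its own WT mean (log2 axis), in libraries labelled DKO (red, upper row of each pair) and WT libraries (blue, lower row). In library 3 labelled DKO Hand1 is lowest, at 59.6 CPM, and the trophoblast sum highest, at 413 CPM, while Pitx1 and the mesenchyme sum share their order within each group.

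Cofactors known to act with these factors in other tissues were counted as well. All 14 listed were tested, 0 passed the threshold and the median log2 fold change was -0.05. Zfpm1, a GATA cofactor gene that red cells also express, stood at 193, 108 and 20 CPM in DKO-labelled libraries 1, 2 and 3, against 130 to 163 CPM in WT. Hey1 stood at 0.524 to 2.07 CPM in the libraries labelled DKO and 1.86 to 4.02 CPM in WT, and Hey2 at 0.253 to 1.18 CPM in the libraries labelled DKO and 1.08 to 1.99 CPM in WT. The adjusted p was 0.603 for Hey1 and 0.597 for Hey2 from edgeR.

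Genes with the most similar pattern were found among 10621 genes of at least 5 CPM, by the root mean square difference in log2 CPM over the 6 libraries, each gene centred on its own mean. For Hand1 these were Capn6 (0.099), Aff3 (0.112) and Spry2 (0.133), a feedback inhibitor gene of growth factor signalling. Capn6 stood at 33.8, 16.6 and 9.08 CPM in DKO-labelled libraries 1, 2 and 3 and 17.9 to 23.0 CPM in WT. For Foxf1 they were Pitpnc1 (0.041), Efna4 (0.042) and the semaphorin gene Sema3f (0.07). For Gata5 they were Dock5 (0.114), the Hedgehog effector gene Gli3 (0.119) and the BMP ligand gene Bmp5 (0.162). Gli3 stood at 17.1, 10 and 4.34 CPM in DKO-labelled libraries 1, 2 and 3 and 8.98 to 14.4 CPM in WT. For Osr1 they were less close, namely the glucose transporter gene Slc5a1 (0.26), Cela1 (0.291) and the cation transporter gene Slc22a3 (0.337). Such likeness over 6 libraries describes levels only.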

How the data were processed

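Messenger RNA of 6 yolk sac samples was sequenced as single-end reads, per the labels' protocols. Raw counts for each gene symbol, as deposited by the authors, were the starting point. The submitters' processing notes name mm10, SAMtools and DESeq2. The sources used here do not give the aligner, counting program, annotation or strandedness, and per the file headers the counted BAM files were subsets. Every row had a gene name and every column a sample. No pair of libraries agreed within sampling noise (chi-square per degree of freedom at least 11.7).

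Groups were compared with the quasi-likelihood test of edgeR 4.0.16 in R 4.3.3 (TMM scaling, filterByExpr with a minimum count of 10, robust shrinkage, group as the only term). It tested 14002 genes, with Benjamini-Hochberg adjustment over all of them. Each SE was obtained from the fold change and its F statistic (absolute value divided by the root of F). A positive log2 fold change means higher in the libraries labelled DKO. CPM are counts per 1000000 of the TMM-scaled total, and log2 CPM used a prior count of 2. The test was checked on simulated counts of 3 against 3 libraries, in which 200 of 14002 genes were made to change. There 11 of its 150 calls were false. Genes set to differ 4-fold were called in 91% of cases, but those set to differ 2-fold in only 52%, so smaller differences can be missed. Alternatives were DESeq2 1.42.0, limma-voom (limma 3.58.1), other scalings and filters, a replicate block and each library left out. Gene coordinates and exon lengths come from GENCODE M21 (GRCm38, which mm10 names), promoters from RefSeq GRCm38.p6.

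The 10 genes and all gene lists were chosen with earlier results of these data known. Beyond the 10, lists of related genes gave the 2 genes with the smallest p and the 1 with the highest mean, marker lists the 2 with the highest mean. Likeness was measured for the 2 tested factors with the highest mean and the 2 with the widest range. Genes named outside this rule, each chosen after its values were seen, are Cdx1, Cdx2, Upk3b, Msln, Aldh1a2, Gpm6a, Lrrn4, Bnc1, Bnc2, Hoxa10, Hoxa11, Hoxa13, Hoxd13, Dlx5, Nkx1-2, Mybpc3, Wt1os, Gata5os, Hbb-y, Myh6, Nppa, Tpbpa, Psg18, Ctsq, Myf5, Fgf8, Prl8a2, Htra1 and those of the closing section. Depth limits Wt1, Osr1 and Tbx4 most.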

Additional observations from a re-analysis of the deposited data

How the results depend on the processing

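The number of genes past the threshold, 5 with all libraries in edgeR, was 296 in DESeq2 (178 higher, 118 lower), 91 with libraries scaled to the mesenchyme list (41 higher, 50 lower), 8 with no filter beyond 1 count and 1 with the replicate block. It ran from 0 to 634 when each library was left out. It was 0 without WT library 2 (630 genes under an unadjusted p of 0.05), 1 without library 2 labelled DKO and also without either of the other WT libraries, 8 without library 3 and 634 without library 1 labelled DKO. None of the 10 genes passed in any of these fits. For a paired analysis, deviations of libraries with the same replicate number correlated at -0.371, -0.283 and -0.189 across genes. By this measure 0 of 6 libraries matched its own number best. Whether libraries of the same number share an origin is not given in the labels and was not tested. The block changed no call among the 10 genes, and the Hand2 share differed by 4.35 percentage points (p = 0.5 by exact sign flips). Tbx4 was tested only with no filter beyond 1 count (adjusted p 0.573 from edgeR).

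Signs that turned were, in log2 fold change, Hand1 in limma-voom (-0.06) and with the replicate block (-0.05), Osr1 in limma-voom (-0.47), with the block (-0.46) and with mesenchyme scaling (-0.38), and under the same scaling Hand2 (-0.02), Pitx1 (-0.13) and Tcf21 (-0.00). Leaving out 1 library at a time gave -0.49 (without library 1 labelled DKO) to 0.53 for Hand1, -0.38 to 0.25 for Foxf1, -0.14 to 0.68 for Pitx1, -0.61 to 0.39 for Gata5 and -1.75 to 0.71 for Osr1. The ends that turned the sign came without library 3 labelled DKO for the last 4, and Gata5 was 0.21 without WT library 2. The cause was not tested. Wt1 and Tbx20 kept their sign in all 15 alternatives.

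Differences of summed CPM (libraries labelled DKO minus WT) that turned when 1 library was left out ran from -39.8 to 49.4 for bHLH partners, -93.6 to 8.31 for cofactors, -106 to 38.9 for Hedgehog and BMP genes, -31.8 to 26.6 for Foxf1 and Hand1 targets, -0.229 to 34.1 for decidual, -4790 to 15100 for visceral endoderm and -73.5 to 102 for endothelial genes. As mean log2 CPM, allantois and neural genes turned to -0.37 and -0.20. Without Mybpc3, an alternative chosen after seeing the data, the cardiac difference turned to 0.686 CPM (-12.6 with it). Counts of 2 to 124 behind Osr1, Wt1, Gata5 and Tcf21 limit their precision.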

Other observations

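Tbx4 was among 3 genes of at least 1 CPM whose level in WT library 2 was at least 5-fold above every other library. The others were Prl4a1, a placental gene of the prolactin family, at 7.04 CPM in WT library 2 and 0 to 1.05 CPM elsewhere, and Gm7244 at 3.79 CPM against 0.546 CPM or less. The same rule gave 3 genes in WT library 3, namely Meox1, Pax6 and Foxd1, known from somites, neural tube and kidney or head mesenchyme. It gave 15, 0 and 127 genes in DKO-labelled libraries 1, 2 and 3 and 0 in WT library 1. Tbx4 is thus the only one of the 10 genes found by this rule in any WT library.

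In the cardiac list, Mybpc3, a sarcomere protein gene chosen after its values were seen, had 1.09, 0.463 and 1.14 CPM in the libraries labelled DKO (1, 2 and 3), against 7.94, 13.7 and 20.9 CPM in WT libraries 1, 2 and 3. Its log2 fold change of -3.98 (SE 0.50) had an adjusted p of 0.0918 from edgeR and 3.03e-14 from DESeq2. The factor genes known from heart had smaller log2 fold changes, 0.17 for Hand1, 0.29 for Hand2, -0.34 for Tbx20 and -0.03 for Gata5, none past the threshold.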
